A study of Oryza sativa with 6 samples.

Results

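The 79 loci described here were higher under salt than under control in every root type of the rice cultivar IR29, out of 37938 loci measured. They were chosen by their values: the deposited reads per locus had to be at least 2-fold higher in the salt than in the control library, after adding 1 to both, in nodal, S-type lateral and L-type lateral roots alike. The higher library of each pair also had to hold at least 50 scaled reads. The salt changes below are therefore the values that chose the loci and are given as a description, with no test.

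IR29 is, per the series, a salinity-sensitive cultivar. The salt groups were nodal, S-type lateral and L-type lateral roots of IR29 given 50 mM NaCl for 7 days, and the control groups were the same 3 root types without it. Each of the 6 groups was 1 messenger RNA library, so no spread between plants can be given, and the labels do not say how many plants a library holds. A scaled read is a read divided by 1 size factor per library, as the authors deposited it. The libraries held 3839177 to 4249872 reads on loci.

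Nodal roots are the shoot-borne axes of the rice root system, and short S-type and longer L-type laterals branch from them. Salt reaches roots as a water deficit and as sodium entering the tissue. Roots are known to respond with abscisic acid signalling, compatible solutes, ion transport and protective proteins. The deposited files give rice locus IDs without names, and 0 of the 79 IDs matched the reference gene table, so no gene name or function is given for any member. Coordinates are those of the deposited files on IRGSP-1.0.

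Salt changes were larger in nodal and L-type than in S-type roots for most of the 79 loci. The median log2 change was 2.43 in nodal (range 1.01 to 7.08), 1.39 in S-type roots (1.01 to 5.47) and 2.45 in L-type roots (1.07 to 7.92). Over all loci that reached 50 scaled reads in the pair, the medians were -0.17, 0.05 and -0.11 in the same order. At least 4-fold changes occurred at 48 members in nodal roots, 16 in S-type roots and 50 in L-type roots. S-type roots had the smallest of the 3 changes at 65 members, nodal roots at 8 and L-type roots at 6. Among the 10332 loci with at least 50 scaled reads in each pair, the change smallest in size lay in S-type roots at 45.0%. The 3 changes of a member lay within 1 log2 unit of each other at 28 members.

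By the same rule, 11.3% of the 12924 loci that could be called were higher in nodal roots, 5.76% of 12209 in S-type and 16.0% of 12800 in L-type roots. All 3 calls held at 0.765% of the 10332 loci. The 79 members made up 11.2% of the 703 loci higher in S-type roots, 5.41% of the 1461 in nodal roots and 3.86% of the 2044 in L-type roots. The counting intervals given below are 95% exact binomial intervals of a ratio and describe the depth behind it. They come from the reads that chose the loci and are no test of a change. They hold counting error and nothing else, and no molecular identifiers that would mark PCR copies are named in the labels.

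**Figure D1:**
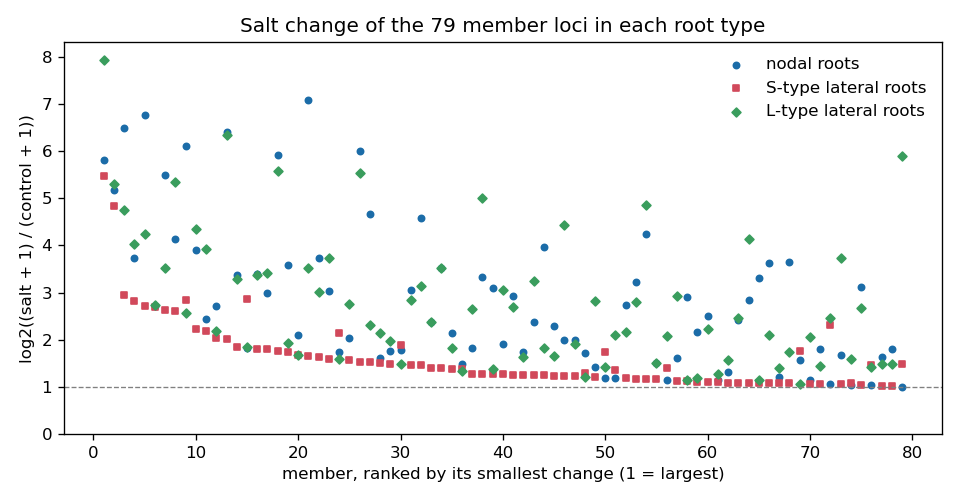
The vertical axis gives log2((salt + 1) / (control + 1)) of each of the 79 loci in nodal (circles), S-type (squares) and L-type roots (diamonds), with loci ranked by their smallest change. The dashed line is the threshold of 1, which chose the loci; S-type roots hold the smallest change at 65 of them.

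Only 3 members had at most 10 reads in every control library, and all of them were among the 10 loci ranked highest by the smallest of their 3 changes. Os03g0184100 (chromosome 3, 4416653 to 4419091) had 211.7 scaled reads in nodal roots, 193.1 in S-type roots and 241.0 in L-type roots under salt, against 2.775 in nodal roots, 3.37 in S-type roots and 0 in L-type roots under control. Its 3 salt libraries differed little from each other, and it had the largest smallest change of the 79. The ratio of salt to control was 76.3 in nodal (95% counting interval 25.8 to 372.5) and 57.3 in S-type roots (19.2 to 281.0). Taking 3 reads as the floor for a library with 0, salt L-type roots stood 93.1-fold above that floor. The counting interval of salt to control in L-type roots had a lower end of 75.2.

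Os03g0586500 (chromosome 3, 21634907 to 21637232) had 68.9 scaled reads in nodal roots, 90.9 in S-type roots and 105.9 in L-type roots under salt, against 0.925 in nodal roots, 2.25 in S-type roots and 1.73 in L-type roots under control. It was the only other member with changes over 8-fold in S-type roots, and the control values stood on 1 or 2 reads each. The ratio in S-type roots was 40.5, with a counting interval of 10.8 to 340.4. Os01g0773700 (chromosome 1, 32699024 to 32709287) had 127.5 in nodal roots, 74.5 in S-type roots and 70.3 in L-type roots under salt, against 1.85 in nodal roots, 11.2 in S-type roots and 5.18 in L-type roots under control. It was highest under salt in nodal roots.

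Another 6 members had at most 10 reads in control nodal and control L-type roots, but more than that in control S-type roots. They were Os11g0547000, Os01g0866000, Os09g0517900, Os03g0416400, Os02g0682700 and Os05g0195200. Os03g0416400 (chromosome 3, 17285860 to 17287326) had 170.1 scaled reads in nodal roots, 143.9 in S-type roots and 210.0 in L-type roots under salt, against 1.85 in nodal roots, 41.6 in S-type roots and 3.45 in L-type roots under control. The salt libraries lay within 1.5-fold of each other, while the control S-type library stood above both other controls. Os09g0517900 (chromosome 9, 20196671 to 20203865) had 83.3 in nodal roots, 107.3 in S-type roots and 148.8 in L-type roots under salt, against 0 in nodal roots, 25.8 in S-type roots and 0.863 in L-type roots under control. Salt nodal roots stood 30.0-fold above the same floor, and the counting interval of salt to control there had a lower end of 24.0. In S-type roots the ratio was 4.15 (counting interval 2.59 to 6.90). Os02g0682700 (chromosome 2, 27914955 to 27916069) had 62.9 in nodal roots, 122.4 in S-type roots and 126.0 in L-type roots under salt, against 0 in nodal roots, 41.6 in S-type roots and 1.73 in L-type roots under control.

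The remaining loci among the 10 with the largest smallest change had more than 10 reads in at least 1 control library. Os11g0547000 (chromosome 11, 20182476 to 20187327), 1 of the 6 above, had 161.6 scaled reads in nodal roots, 435.4 in S-type roots and 283.9 in L-type roots under salt, against 8.33 in nodal roots, 70.8 in S-type roots and 6.04 in L-type roots under control. Os01g0866000 (chromosome 1, 37505154 to 37506089), another of them, had 153.0 in nodal roots, 367.3 in S-type roots and 176.2 in L-type roots under salt, against 9.25 in nodal roots, 77.5 in S-type roots and 7.77 in L-type roots under control. Both were highest in S-type roots under either treatment. Os12g0586100 (chromosome 12, 24454945 to 24462001) had 402.2 scaled reads in nodal roots, 4445 in S-type roots and 1203 in L-type roots under salt, against 60.1 in nodal roots, 687.4 in S-type roots and 181.2 in L-type roots under control. Its ratios were almost the same in the 3 root types: 6.69 in nodal (counting interval 5.15 to 8.81), 6.47 in S-type roots (5.93 to 7.06) and 6.64 in L-type roots (5.74 to 7.72). Os01g0102900 (chromosome 1, 163367 to 170659) had 516.1 in nodal roots, 314.3 in S-type roots and 671.9 in L-type roots under salt, against 6.48 in nodal roots, 42.7 in S-type roots and 113.0 in L-type roots under control. Here the change was largest in nodal and smallest in L-type roots. Os03g0265900 (chromosome 3, 8788678 to 8790378) had 171.8 in nodal roots, 170.4 in S-type roots and 279.4 in L-type roots under salt, against 0.925 in nodal roots, 21.3 in S-type roots and 9.49 in L-type roots under control. Os07g0529600 (chromosome 7, 20724580 to 20726069) had 98.6 in nodal roots, 381.2 in S-type roots and 199.0 in L-type roots under salt, against 6.48 in nodal roots, 52.8 in S-type roots and 11.2 in L-type roots under control.

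**Figure D2:**
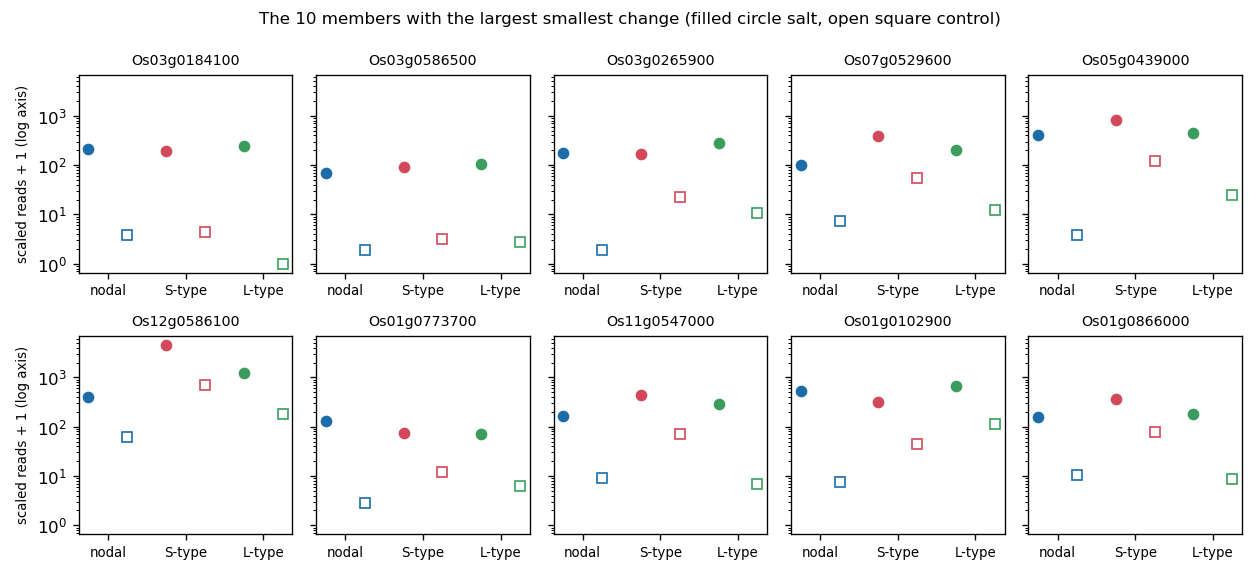
Each panel shows 1 of the 10 loci with the largest smallest change, with scaled reads + 1 on a log axis for salt (filled circles) and control (open squares) in nodal, S-type and L-type roots, 1 library each. In every panel the 3 salt values lie above the control value of the same root type, and control nodal roots had under 10 scaled reads in every panel except that of Os12g0586100.

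One pair of members were direct neighbours with no locus between them. Os05g0439000 (chromosome 5, 21509425 to 21510614) and Os05g0439100 (21511929 to 21512541) lie 1315 bp apart. Os05g0439000 had 408.1 scaled reads in nodal roots, 807.8 in S-type roots and 454.7 in L-type roots under salt, against 2.775 in nodal roots, 122.4 in S-type roots and 23.3 in L-type roots under control. Os05g0439100 had 602.8 in nodal roots, 234.8 in S-type roots and 421.8 in L-type roots under salt, against 73.1 in nodal roots, 77.5 in S-type roots and 31.1 in L-type roots under control. The first was highest under salt in S-type roots and the second in nodal roots. The next closest members, Os09g0531701 and Os09g0532400 on chromosome 9, lay 29094 bp apart with 6 loci between them.

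Members were found on all 12 chromosomes, with the most on chromosome 3 (15 loci), chromosome 1 (13) and chromosome 5 (12). As a share of the loci with at least 50 scaled reads in each pair, they made up between 0.207% on chromosome 10 and 1.35% on chromosome 5. Member loci spanned 612 to 10263 bp in the deposited coordinates, with a median of 2854 bp, against 4549 bp over the 10332 loci. Another locus overlapped the span of 23 members. Whether the counting used the strand of these strand-specific libraries is not stated, so reads of such a pair may not be told apart. Among the loci named above and below, these are Os01g0773700, Os01g0866000, Os09g0517900, Os12g0586100, Os01g0102900, Os03g0265900, Os03g0648400, Os04g0549600, Os10g0547500, Os09g0531701 and Os11g0610600.

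The most abundant members were among the most abundant transcripts of the salt libraries. Levels of different loci are set side by side as FPKM, which scales fragments by transcript length and library size, as deposited by the authors. Under salt the members' mean FPKM had a median of 53.4, and 7 loci were above 1000. Os01g0256500 (chromosome 1, 8546064 to 8546869) ranked first of all loci in each of the 3 salt libraries, with 7286 FPKM in nodal roots, 22982 in S-type roots and 19192 in L-type roots. Under control it had 955 FPKM in nodal roots, 9519 in S-type roots and 2804 in L-type roots and ranked 72 in control nodal, 1 in control S-type and 4 in control L-type roots. In scaled reads it had 16814 in nodal roots, 53044 in S-type roots and 45644 in L-type roots under salt, against 2223 in nodal roots, 22181 in S-type roots and 7012 in L-type roots under control. S-type roots had the smallest change of this locus, and the control S-type library had the highest control level.

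Os12g0632000 (chromosome 12, 27060231 to 27061159) had 5698 FPKM in nodal roots, 17967 in S-type roots and 7578 in L-type roots under salt, against 562 in nodal roots, 7325 in S-type roots and 224 in L-type roots under control. The scaled-read ratio was 32.2 in L-type (counting interval 29.7 to 34.96) and 2.43 in S-type roots (2.38 to 2.48), so the root types stood far apart in change. Os03g0670700 (chromosome 3, 26460056 to 26461230) had 5722 FPKM in nodal roots, 13314 in S-type roots and 8342 in L-type roots under salt, against 1435 in nodal roots, 4403 in S-type roots and 1182 in L-type roots under control. Os01g0975300 (chromosome 1, 43096255 to 43098049) had 3017 FPKM in nodal roots, 12566 in S-type roots and 5044 in L-type roots under salt, against 347 in nodal roots, 6069 in S-type roots and 769 in L-type roots under control. It lay close to the threshold in S-type roots, where its scaled-read ratio was 2.06 (counting interval 2.03 to 2.09), and it falls outside the rule with TMM scaling (log2 change 0.99).

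Of the 79 members, 6 had their largest change in S-type roots, and 3 of these were among the 10 most abundant. Os06g0612800 (chromosome 6, 24491992 to 24494235) had 4986 scaled reads in nodal roots, 12930 in S-type roots and 9342 in L-type roots under salt, against 1503 in nodal roots, 2941 in S-type roots and 3115 in L-type roots under control. Its ratio was 4.40 in S-type (counting interval 4.21 to 4.59), 3.32 in nodal (3.14 to 3.51) and 2.998 in L-type roots (2.89 to 3.12). Os03g0648400 (chromosome 3, 25127261 to 25130981) had 5577 in nodal roots, 15604 in S-type roots and 8660 in L-type roots under salt, against 2435 in nodal roots, 4661 in S-type roots and 3231 in L-type roots under control. Its S-type ratio of 3.35 also exceeded those in nodal (2.29) and L-type roots (2.68). In L-type roots the deposited FPKM of this locus were 1338 under salt and 1012 under control, a log2 change of 0.40, so reads and FPKM differ on the size of the change. Os04g0549600, the third of them, had 226 FPKM in nodal roots, 750 in S-type roots and 284 in L-type roots under salt, against 74.1 in nodal roots, 224 in S-type roots and 133 in L-type roots under control.

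Os03g0826800 (chromosome 3, 34733450 to 34734892) had the largest nodal change of all members. It had 5148 scaled reads in nodal roots, 2869 in S-type roots and 4908 in L-type roots under salt, against 37.0 in nodal roots, 916.6 in S-type roots and 425.3 in L-type roots under control. The ratio was 139.1 in nodal (counting interval 102.1 to 195.0), 3.13 in S-type roots and 11.5 in L-type roots. The control libraries thus spanned a far wider range than the salt libraries at this locus.

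The 79 loci together took a larger share of reads in each salt library than in its control. Each locus was chosen for being higher under salt, so the direction follows from the rule and the shares are described only. The share was 2.68% in salt against 0.423% in control nodal roots, 5.25% in salt against 2.23% in control S-type roots, and 4.49% in salt against 0.827% in control L-type roots. Most of these reads lay on 5 loci, Os01g0256500, Os01g0975300, Os12g0632000, Os03g0670700 and Os03g0648400. Without them the other 74 loci took 0.901% in salt and 0.154% in control nodal roots, 1.15% and 0.387% in S-type roots, and 1.17% and 0.300% in L-type roots. The order of the salt libraries changed with those 5 loci: S-type was highest with them, and S-type and L-type were nearly equal without them. In such bulk samples, more cells of a type and more RNA per cell cannot be told apart.

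**Figure D3:**
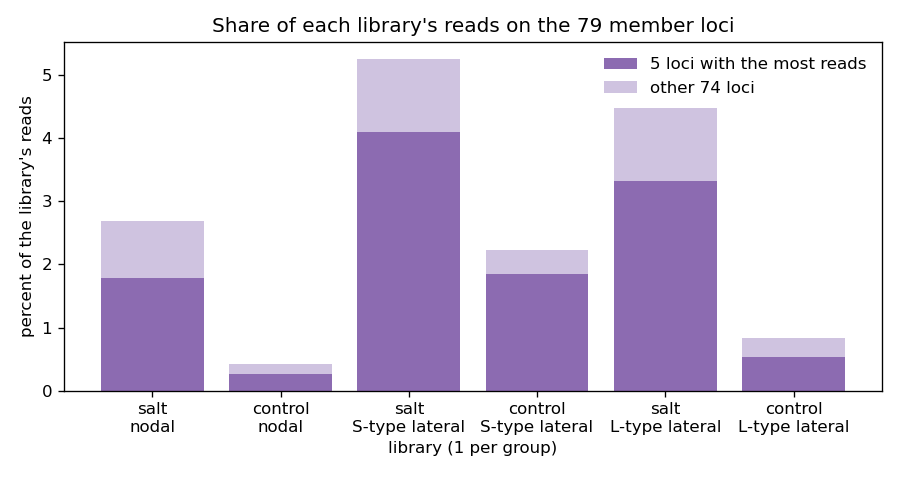
Bars give the percent of each library's reads on the 79 loci, split into the 5 loci with the most reads (dark) and the other 74 (light), for salt and control in each root type, 1 library each. The bars reach 2.68% in salt and 0.423% in control nodal roots, 5.25% in salt and 2.23% in control S-type roots, and 4.49% in salt and 0.827% in control L-type roots.

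Under control, members were mostly highest in S-type roots. The control level was highest in S-type roots at 66 members (83.5%), in L-type roots at 10 and in nodal roots at 3. Among the 10332 loci with at least 50 scaled reads in each pair, it was highest in S-type roots at 37.5%. The median over members was 314.3 scaled reads in salt and 91.0 in control S-type roots, 225.5 in salt and 41.4 in control L-type roots, and 175.2 in salt and 29.6 in control nodal roots. The control libraries are also the denominators of the rule, so these levels are described only.

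By the rule of size within control, 59 members had at least 50 scaled reads in S-type or nodal roots, and 43 of them (72.9%) were at least 2-fold higher in S-type and 2 lower. Of all 13417 loci, 24.2% were higher and 22.9% lower, and of those that reached 50 scaled reads in each salt pair 21.4% were higher and 15.3% lower. L-type roots were higher than nodal at 18 of 40 members and lower at 4, where all loci had 15.5% higher and 21.3% lower (13.6% and 16.4% of those with 50 in each salt pair). L-type roots were lower than S-type at 39 of 61 members and higher at 4, where all loci had 22.0% lower and 12.3% higher (18.3% and 7.53% of those with 50 in each salt pair). Under salt the same contrast of S-type with nodal roots gave 33 of 79 members higher and 8 lower, beside 25.0% and 22.6% of all loci. L-type roots under salt were higher than nodal at 15 members and lower at 3 (11.6% and 10.9% of all loci), and higher than S-type at 9 and lower at 22 (15.0% and 19.6%).

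**Figure D4:**
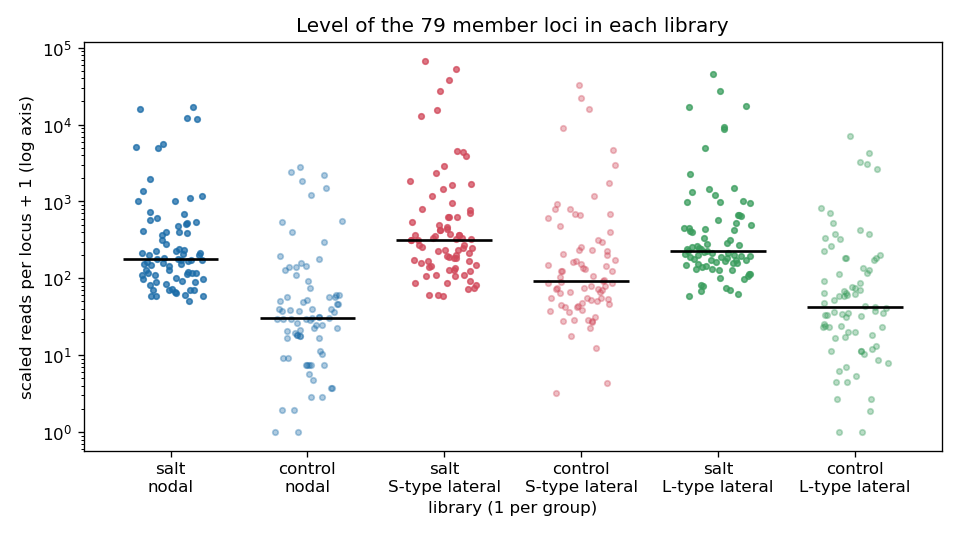
Each point is 1 of the 79 loci, with scaled reads + 1 on a log axis, in the salt and control library of each root type; black lines are medians. The medians are 175.2 under salt and 29.6 under control in nodal, 314.3 and 91.0 in S-type roots, and 225.5 and 41.4 in L-type roots.

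Root types lay closer together under salt than under control at most members. The spread, the highest minus the lowest log2(scaled reads + 1) over the 3 root types, had a median of 1.33 under salt and 2.15 under control. It was smaller under salt at 62 members (78.5%), beside 56.1% of the 10332 loci. The spread is made from the values that chose the loci, and nothing further is read from it.

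The difference between root types averaged over both treatments was no criterion of the rule, and it was tested over the 19469 loci that reached 10 reads in 2 or more libraries. The test was limma on log2(TMM-scaled reads + 1), with root type and treatment as additive terms and Benjamini-Hochberg adjustment at 0.05. It called 22 of the 79 members higher in S-type than in nodal roots and 2 lower; of all loci it called 11.3% higher and 7.72% lower. Among the 10332 loci with at least 50 scaled reads in each pair, 12.6% were higher and 4.74% lower. At an unadjusted p under 0.05 limma had 38 members higher and 2 lower, beside 18.5% and 18.3% of all loci. The median log2 difference was 1.28 over members and -0.04 over all loci tested. The residual of this fit is the interaction of root type and treatment, which the rule bounds on 1 side, so the members' p-values are not fully independent of how they were chosen. They rest on how alike the difference was under salt and control, with an error that limma moderates over all loci. They say nothing of the spread between plants.

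The count of 22 depended on single libraries, and so did the calls over all loci. Both fell furthest without either nodal library, and the 2 lower calls were lost there too. A fit without 1 library leaves 1 library of its root type, so only the median log2 difference of S-type minus nodal is given here. Over members it was 1.56 without salt nodal, 0.91 without control nodal, 1.78 without salt S-type and 0.82 without control S-type roots. It was 1.28 when either L-type library was left out. Over all loci these medians lay between -0.09 and 0.06. On recovered reads, the edgeR quasi-likelihood test called 17 members higher and 2 lower, beside 1741 and 835 of the 19469 loci. DESeq2 called 34 members higher and 2 lower, beside 2543 and 2181 of the 19469 loci.

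Os12g0586100, described above, was the member with the smallest p in this contrast, with 4445 scaled reads in salt and 687.4 in control S-type roots, against 402.2 in salt and 60.1 in control nodal roots. The log2 difference was 3.55 ± 0.28 (SE, limma adjusted p = 0.00523). Os10g0547500 (chromosome 10, 21417293 to 21419832) had 4559 in salt and 1761 in control S-type roots, against 398.8 in salt and 142.5 in control nodal roots. It differed by 3.63 ± 0.29 (SE, limma adjusted p = 0.0053). At both loci the 2 S-type libraries lay above both nodal libraries.

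Both members called lower in S-type roots are named here for that reason, after their values were seen. The same limit holds for their p-values. Os05g0360400 (chromosome 5, 17175701 to 17176974) had 59.3 scaled reads in salt and 27.0 in control S-type roots, against 724.4 in salt and 126.7 in control nodal roots. Its log2 difference was -2.82 ± 0.48 (SE, limma adjusted p = 0.0189). Os02g0817600 (chromosome 2, 35073370 to 35075799) had 111.1 in salt and 51.7 in control S-type roots, against 386.0 in salt and 155.4 in control nodal roots (difference -1.61 ± 0.32, SE, limma adjusted p = 0.0272).

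Between L-type and nodal roots limma called 0 members higher and 0 lower, beside 0.0% of all loci in either direction. At an unadjusted p under 0.05, 13 members were higher and 1 lower, beside 9.05% and 7.37% of all loci. The edgeR test called 0 members and 0 of all loci. DESeq2 called 5 members higher and 1 lower, beside 545 and 419 of the 19469 loci. Between L-type and S-type roots limma called 0 members higher and 0 lower, beside 0.0103% of all loci higher and 0.0% lower (0.00968% and 0.0% of those with 50 in each salt pair). At an unadjusted p under 0.05, 4 members were higher and 31 lower in L-type roots, beside 9.77% and 12.1% of all loci. Here too edgeR called 0 members and 0 of all loci. DESeq2 called 2 members higher and 17 lower, beside 553 and 1108 of the 19469 loci. Without either S-type library limma called loci in both contrasts, at members and over all loci alike. Such a fit leaves 1 S-type library, so only medians are given here. The median log2 difference of L-type minus nodal roots stayed 0.45 over members and 0.02 over all loci. For L-type minus S-type roots it was -1.59 over members and -0.07 over all loci without salt S-type. Without control S-type it was -0.33 and 0.07, and with all 6 libraries -0.95 and 0.02.

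**Figure D5:**
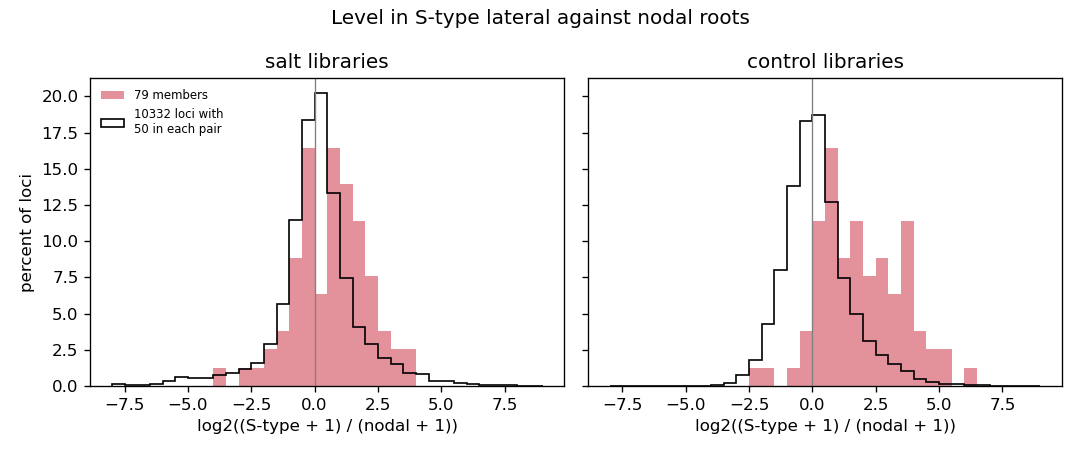
Histograms give the percent of loci by log2((S-type + 1) / (nodal + 1)) in the salt libraries (left) and control libraries (right), for the 79 members (filled) and the 10332 loci with at least 50 scaled reads in each pair (line), with values beyond the axis drawn in the end bins. Of the members with at least 50 scaled reads in either library, 33 of 79 in salt and 43 of 59 in control were at least 2-fold higher in S-type roots. The shares of all loci were 25.0% in salt and 24.2% in control.

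Members at the edge of the rule differed little from loci just outside it. The smallest changes inside were 1.01 at Os01g0757600 in nodal roots, 1.01 at Os05g0562200 in S-type and 1.02 at Os11g0610600 in S-type roots. The nearest outside were 0.9996 at Os11g0158832 in S-type roots (131.3 scaled reads under salt and 65.1 under control), 0.99 at Os11g0648000 in L-type and 0.99 at Os01g0574800 in S-type roots. In all, 18 members had a smallest change from 1 to 1.1, and 23 loci had one from 0.9 to 1. Os01g0757600 (chromosome 1, 31815516 to 31816876) was an uneven case, with 58.7 in nodal roots, 244.9 in S-type roots and 58.4 in L-type roots under salt, against 28.7 in nodal roots, 86.5 in S-type roots and 0 in L-type roots under control. Its level in salt L-type roots stood 22.6-fold above the floor of 3 reads.

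The authors' deposited table gives q-values for the salt comparison in each root type, and marked 4 of the 79 members as significant in any. In nodal roots this was Os02g0682700 (authors' deposited table, q = 0.0144), and in S-type roots Os01g0975300 (authors' deposited table, q = 0.0144). In L-type roots they were Os03g0184100 (authors' deposited table, q = 0.0144) and Os01g0757600 (authors' deposited table, q = 0.0385). No member was marked in more than 1 root type. At Os02g0682700, Os03g0184100 and Os01g0757600 the control library of the marked root type had 0 reads. The q-values concern the same salt changes that chose the members, from 1 library per group, so they are no separate support. Of all loci tested, that table marked 9 of 18830 in nodal, 23 of 17633 in S-type and 9 of 18408 in L-type roots.

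Of 12 groups of rice IDs, set down from general knowledge of salt response, tissue and hormone genes, 93 loci were measured and 0 were among the 79 members. Only 37 of the 93 had at least 50 scaled reads in each pair, and the members are 0.765% of such loci, so nothing is read from the 0. No annotation was at hand to check these groups, so they are described as groups only. Of all loci that could be called, 11.3% were higher and 14.5% lower under salt in nodal roots, 5.76% higher and 11.7% lower in S-type roots, and 16.0% higher and 12.4% lower in L-type roots. The groups are small, and their counts are set beside these shares without a test. Of the measured abscisic acid response loci that could be called, 1 of 4 was higher in nodal, 1 of 5 in S-type roots and 3 of 6 in L-type roots, and 0 were lower. Abscisic acid synthesis and breakdown had 0 of 1, 1 of 2 and 2 of 3 higher, and stress transcription factors 4 of 9, 1 of 10 and 4 of 11, with 1 lower in S-type roots and 1 in L-type roots. Osmolyte, sodium and potassium transport, pathogenesis-related and heat shock groups had 0 loci higher in any root type. Osmolyte loci were lower at 2 of 6 in nodal roots, 1 of 5 in S-type roots and 1 of 5 in L-type roots. Of the sodium and potassium transport loci 1 of 3 was lower in nodal roots, of the pathogenesis-related loci 3 of 3 in S-type roots, and of the heat shock loci 1 of 2 in L-type roots. Jasmonate loci had 6 of 7 lower in nodal, 3 of 8 in S-type roots and 2 of 8 in L-type roots, with 1 higher there. Aquaporins had 3 of 9 lower in nodal, 7 of 9 in S-type roots and 2 of 7 in L-type roots, with 1 higher there.

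The groups set down as tissue markers also differed between salt and control. Photosynthesis loci, a sign of green shoot tissue, had 8 of 8 higher in nodal and 5 of 5 in L-type roots, and none reached 50 scaled reads in S-type roots. Their summed level was 2210 scaled reads in salt and 77.7 in control nodal roots, 56.8 in salt and 41.6 in control S-type roots, and 919.4 in salt and 107.8 in control L-type roots. The 3 secondary wall loci, a mark of xylem and fibres, summed to 3501 in salt and 4280 in control nodal roots, 7.57 and 107.8 in S-type roots, and 151.6 and 194.1 in L-type roots. The 1 locus listed as a root marker had 5378 in salt and 11675 in control nodal roots, 1.26 and 216.8 in S-type roots, and 1747 and 3954 in L-type roots. That locus was thus close to 0 in salt S-type roots, although the labels give root tissue for all 6 libraries. Photosynthesis loci were higher in the nodal and L-type salt libraries, where the members' changes were larger than in S-type roots. The part of these groups in the members' changes was not tested.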

How the data were processed

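Messenger RNA of 6 libraries, 1 per group, was analysed. The build IRGSP-1.0 and the programs Cuffdiff 2.2.1, Cufflinks 2.2.1, TopHat2 2.0.11, Bowtie and Trimmomatic 0.32 are named per the submitters' processing notes. For each locus the deposited signal is reads divided by 1 size factor per library, as its steps show. They also deposited FPKM values with p-values and q-values of pairwise comparisons, in the layout of Cuffdiff per the file headers. How reads shared by similar genes were counted is not stated, so members of gene families are uncertain. Another 24 per-library columns (variances and status) were not used.

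Dividing each library's signal by its step gave whole reads, within 0.01, for 99.897% to 99.978% of values above 0. The 828 loci without an ID, at most 0.576% of a library's reads, stayed in, since they are measured loci with coordinates. A change is the difference of log2(scaled reads + 1), so those of low loci are understated. Because the unit is not raw counts, limma 3.58.1 (R 4.3.3) with a mean-variance trend was used; edgeR 4.0.16 and DESeq2 1.42.0 ran as alternatives on recovered reads. All 79 members passed its filter of at least 10 reads in at least 2 libraries. The limma step was tested on simulated data with a fixed spread of counts and no interaction of root type and treatment. In the real data that interaction is the residual, so the simulation cannot show how the fit performs here. Names were sought in a RefSeq table of assembly ASM3414082v1, which held 1 of the 36773 gene IDs.

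The members, lists and tests were chosen with earlier results of these data known. The rule for naming took the 10 members with the largest smallest change, the 10 with the highest mean FPKM under salt and those at the threshold. Fewer IDs are printed, because no reference names them; other members were named after their values were seen, to show groups the text counts. Searches by gene description and promoter motif were not run.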

Additional observations from a re-analysis of the deposited data

How the results depend on the processing

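Of 21 named members, the smallest salt change fell below the threshold of 1 at 3 with TMM, 3 with library totals, 1 with median of ratios, 0 with a pseudocount of 0.5 and 2 with a pseudocount of 5. The rule found 80 loci with TMM scaling (76 of them among the 79), 70 with library totals (64 shared), 78 with median of ratios and 79 with FPKM (74 shared). With library totals 15 members were lost, all in S-type roots, 14 by a change below the threshold and 1 by a level below the minimum alone. That scaling gave a median change of all loci of -0.05 in S-type roots (0.05 as deposited), -0.01 in nodal roots (-0.17) and -0.17 in L-type roots (-0.11). A minimum of 10 scaled reads gave 195 loci, a minimum of 200 gave 24 and 4-fold gave 13. Without loci that overlap another, a choice made after seeing the data, 56 remained. Listed loci higher in nodal roots were 5 with a minimum of 200. In S-type roots they were 6 with a minimum of 10 and 0 at 4-fold. In L-type roots they were 10 with a minimum of 200 and 11 at 4-fold. How many listed loci could be called at these settings, and the shares of all loci, were not computed. Nothing is therefore read from these counts.

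Within control, a minimum of 200 gave 18 members higher and 0 lower in S-type than nodal roots, 8 higher and 1 lower in L-type than nodal, and 0 higher and 17 lower in L-type than S-type. The counts at 4-fold were 28 and 1, 7 and 0, and 0 and 17. A minimum of 10 gave 11 lower in L-type than nodal roots. Library totals gave 2 lower in L-type than nodal and 7 higher in L-type than S-type roots. Shares of all loci at these settings were not computed, so whether the members stand above them there cannot be said. For the fit, DESeq2 called 34 members higher in S-type than nodal roots, beside 2543 of the 19469 loci. It called 5 higher and 1 lower in L-type than nodal roots, beside 545 and 419 loci. In L-type against S-type roots it called 2 higher and 17 lower, beside 553 and 1108 loci. A pseudocount of 5 called 3 members lower in L-type than S-type roots, beside 368 loci. Leaving out 1 library gave 0 to 36 members higher and 0 to 4 lower in S-type than nodal roots, 0 to 7 higher and 0 to 1 lower in L-type than nodal, and 0 to 4 higher and 0 to 18 lower in L-type than S-type. A fit without 1 library has 1 residual degree of freedom, and limma moderates its error with that of all loci. The calls over all loci also moved widely in the fits without 1 library, each of which leaves 1 library of a root type. The member counts of those fits are therefore listed only to show that they depend on single libraries. Nothing is read from them about the members. The cause of these moves was not tested.

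No paired analysis was possible because each group is 1 library and the labels give no replicate numbers. Depth limits members with few control reads: 18 had at most 10 in control nodal, 3 in control S-type and 12 in control L-type roots.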

Other observations

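Loci passing the rule in only 2 of the 3 root types were unevenly divided. In nodal and L-type but not S-type roots there were 574, with a median log2 change of 0.03 in S-type roots, where 298 were above 0 and 70 were at least 2-fold lower. In S-type and L-type but not nodal roots there were 115, with a median of 0.32 in nodal roots. In nodal and S-type but not L-type roots there were 34, with a median of 0.48 in L-type roots and 0 at least 2-fold lower.

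The mirrored rule, at least 2-fold lower under salt in every root type, found 132 loci, or 1.28% of the 10332 with at least 50 scaled reads in each pair. Their root type pattern differed from that of the 79, though no test was made. Control and salt levels are part of both rules, so the patterns are described only. The control level was highest in S-type roots at 66 of the 79 members but at 22 of the 132, beside 37.5% of the 10332 loci. It was highest in nodal roots at 3 members but at 94 of the 132, beside 34.6%. The root types lay closer together under salt at 62 of the 79 members and at 39 of the 132, beside 56.1%. The median log2 change of the 132 was -1.56 in nodal roots, -1.96 in S-type roots and -1.50 in L-type roots. S-type roots thus had the largest median there and the smallest among the 79. The median span of the 132 was 4532 bp, against 2854 bp for the 79 and 4549 bp over the 10332 loci.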
